A study of Mus musculus with 12 samples.

Results

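The nuclear-encoded subunits of the mitochondrial respiratory chain and ATP synthase were followed in mouse colon after local ablation of enteric neurons. Members were chosen by gene symbol alone, from the Ndufa, Ndufb, Ndufc, Ndufs, Ndufv, Sdh, Uqcr, Cox and Atp5 families, without names ending in -ps plus a digit. The rule found 90 of the 27179 genes in the table: 42 of complex I (NADH dehydrogenase), 4 of complex II (succinate dehydrogenase), 8 of complex III (the cytochrome bc1 complex), 18 of complex IV (cytochrome c oxidase) and 18 of complex V (ATP synthase). The 2 names Atp5c1-ps and Ndufs5-ps carry the ending used for pseudogenes and entered through the rule as written. Ndufa11b and Ndufs6b are annotated as pseudogenes too, and complexes were assigned by name.

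RNA was taken from full-thickness colon at the injection site of 12 libraries. The 5 control libraries came from R26-iDTR littermates without Cre, in which the receptor for diphtheria toxin is not expressed. The 7 ablated libraries came from BAF53b-iDTR mice, in which a Cre under the neuronal BAF53b promoter is the switch for the receptor. All animals of both groups had the same surgery: 4 µL of toxin at 0.33 ng/µL with 10% India ink was injected into the muscle layer through a laparotomy. The labels used here give no age, sex or time after injection, and do not say whether each library is a separate mouse. The tests therefore measure spread among libraries, which may in part be technical.

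Respiratory complexes I, III and IV pass electrons from NADH to oxygen and pump protons across the inner mitochondrial membrane, complex II feeds in electrons from succinate, and complex V uses the proton gradient to make ATP. Most subunits are encoded in the nucleus and imported, while the remainder are read from mitochondrial DNA, and complex II has nuclear subunits only. Colonocytes, the absorptive epithelial cells of the colon, are known for oxidising butyrate in their mitochondria, and smooth muscle and enteric neurons also depend on oxidative phosphorylation.

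Motifs of transcription factors known from other work to act on respiratory genes were read from RefSeq promoters (build GRCm38.p6, from 250 bases before to 50 bases after the start). Of the 90 members, 69 matched a promoter, as did 27025 genes in all. Both strands were searched, and motifs may overlap. The NRF1 letters, GCGCA then any base then GCGC, were in the window of 17 members, 24.6%, against 5.19% of all genes with a promoter. The GABP letters CCGGAAG were also found for 17 members, 24.6%, against 9.93% of all genes. The YY1 letters AANATGGCG were found for 10 members, 14.5%, against 2.76%, and the ERRA letters TCAAGGTCA for 2 members, 2.90%, against 0.466%. At least 1 of the 4 was found for 38 members, 55.1%, against 16.2% of all genes. Member promoters held 57.3% G and C, against 53.8% over all promoters. A match is a run of letters and not a bound site. The stretches shown are from members whose values are given in the results and which hold a match before the start, on the gene's strand, 5′ to 3′, with the match in capitals. They are from Sdha (chr13:74350241-74350300, minus strand), Cox6a1 (chr5:115349041-115349100, minus strand), Atp5k (chr5:108434415-108434474, minus strand) and Uqcrh (chr4:116075071-116075130, minus strand, GABP letters read on the other strand).
Sdha: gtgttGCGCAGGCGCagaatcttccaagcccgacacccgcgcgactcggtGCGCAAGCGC
Cox6a1: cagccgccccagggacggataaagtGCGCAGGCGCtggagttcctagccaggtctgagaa
Atp5k: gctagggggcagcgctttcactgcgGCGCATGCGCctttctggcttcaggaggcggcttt
Uqcrh: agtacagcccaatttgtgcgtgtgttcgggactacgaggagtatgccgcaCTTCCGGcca
The first 3 carry NRF1 letters, and Sdha carries them at 2 places in the stretch and at 3 in the whole window.

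Depth was 13365740 to 26869844 reads per library, recovered from the TPM values, the lowest in ablated 1. Neuron markers passed the test as lower for 9 of 10 genes, with a summed level of 136 ± 45.4 TPM in controls (SD, n = 5) and 27.6 ± 6.39 TPM in ablated libraries (SD, n = 7). The 3 with the smallest p were Syt1, a sensor of synaptic release, Uchl1, a neuronal hydrolase, and Ret, a receptor of enteric neurons, with log2 fold changes of -2.38, -2.48 and -1.65 and limma adjusted p = 0.000161, 0.000406 and 0.000591. The marker totals of epithelium were 12175 to 15276 TPM in controls and 11617 to 20370 TPM in ablated libraries, and those of smooth muscle 7912 to 12132 and 7933 to 25564 TPM. Cdh1, the epithelial adhesion protein E-cadherin, was at 38.0 TPM or more in every library. Ablated 1 stood apart: genes of mitochondrial DNA held 25.6% of its TPM, against 5.20 to 14.2% in the other libraries. In bulk tissue, fewer cells of a type and less RNA per cell cannot be told apart.

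The members were among the abundant transcripts of the colon. TPM, the unit of all levels here, scales reads by transcript length and library total, so levels of different genes can be set side by side. Together the 90 members held 4.65 ± 0.304% of TPM in controls (SD, n = 5) and 4.19 ± 0.593% in ablated libraries (SD, n = 7). Of the 84 members with enough signal to test, 70 had a mean over 100 TPM, 15 had one over 1000 TPM, and 11 had one under 25 TPM. Complex IV had the highest summed level and complex II the lowest.

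By complex, the summed levels in ablated libraries were between 0.884 and 1.02 times those of controls, and the groups overlapped for all 5 complexes. Complex I members summed to 11170 ± 788 TPM in controls and 9978 ± 1126 TPM in ablated libraries, and complex II members to 916 ± 80.5 and 935 ± 255 TPM. Complex III summed to 5447 ± 402 and 4854 ± 612 TPM. The sums of complex IV were 15122 ± 1100 and 13362 ± 1817 TPM. Those of complex V were 13816 ± 766 and 12751 ± 2457 TPM. In every complex ablated 1 was the lowest of all 12 libraries. Without it the ratio of group means over all members moved from 0.901, a log2 ratio of -0.15, to a log2 ratio of -0.08. The log2 ratio of complex I moved from -0.16 to -0.11, that of complex III from -0.17 to -0.11, that of complex IV from -0.18 to -0.11, and that of complex V from -0.12 to -0.026. For complex II it moved from 0.029 to 0.13.

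**Figure D1:**
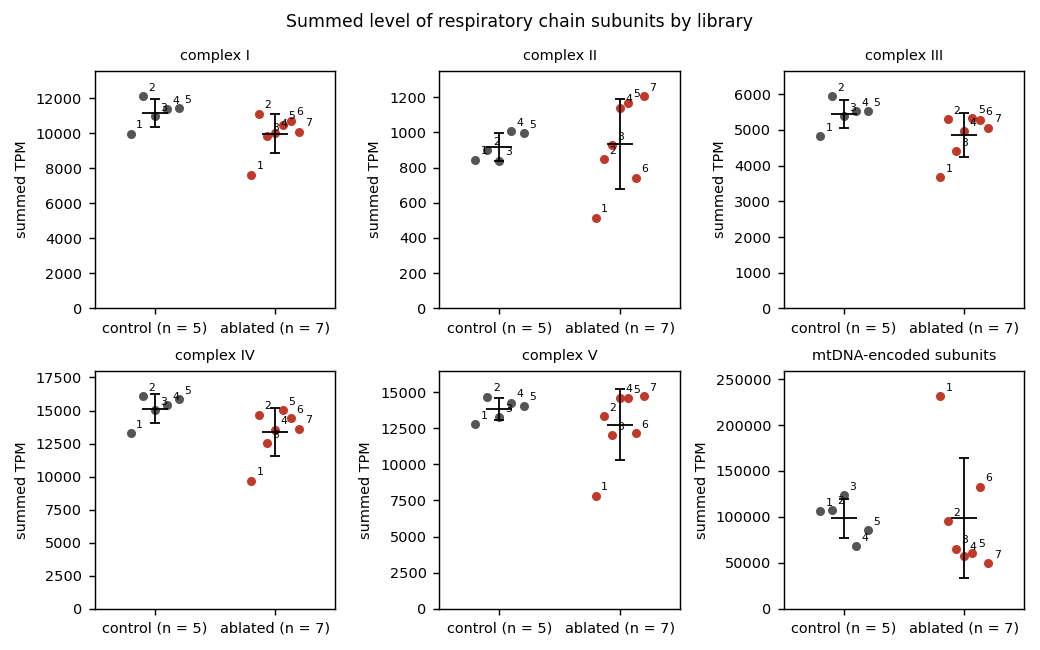
Summed TPM of the members of complexes I to V and of the 13 subunits encoded in mitochondrial DNA, in each control (grey, n = 5) and ablated (red, n = 7) library, numbered by replicate, with the mean and SD in black. Ablated 1 is lowest for each nuclear-encoded complex, at 7630 TPM for complex I, and highest for the mitochondrially encoded subunits, at 231121 TPM.

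No member passed the test between groups: 0 of 84 had an adjusted p under 0.05 in limma on log2(TPM + 0.5), where 1.43% of all 16164 genes tested did, 1.01% as lower and 0.421% as higher. At an unadjusted p under 0.05 there were 9 members, all of them lower, against 11.8% of all genes in either direction and 4.75% lower. The voom method on the recovered reads also called 0 members, and the authors' deposited table lists 0 members with a false discovery rate under 0.05, against 1.13% of its genes, the members' lowest being 0.147 for Uqcrh. Log2 fold changes, ablated minus control, were negative for 68 members and positive for 16, with a median of -0.13. Ablated 1 carried part of this: without it 54 of 84 were negative and the median was -0.06, and with a weight per library 51 were negative. Over all genes tested the median was 0.03, with 7167 of 16164 negative. The median 95% interval of a member reached 0.37 to either side of its log2 fold change, so differences much smaller than that were not resolvable here.

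Calls depended on what else was in the fit. With a score of the epithelium markers as a covariate, 36 members passed as lower and 1, Cox8b, as higher, 44% of those tested. Of all genes 16.2% passed, 9.56% as lower and 6.61% as higher. That score comes from the same libraries, and 7 of its 10 markers had positive log2 fold changes. Score and group are therefore not fully separable in this fit. With the mitochondrial DNA share of TPM as a covariate, 7 passed as lower, 8.33% against 4.29% of all genes in either direction, 2.22% as lower. These were Ndufa1, Ndufa2, Ndufa4, Ndufb11, Ndufs4, Uqcrh and Atp5mpl. With a weight per library 4 passed, 4.76% against 6.76%: Ndufa1, Ndufa2 and Atp5e as lower, against 2.71% of all genes, and Ndufs1 as higher, against 4.05%.

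**Figure D2:**
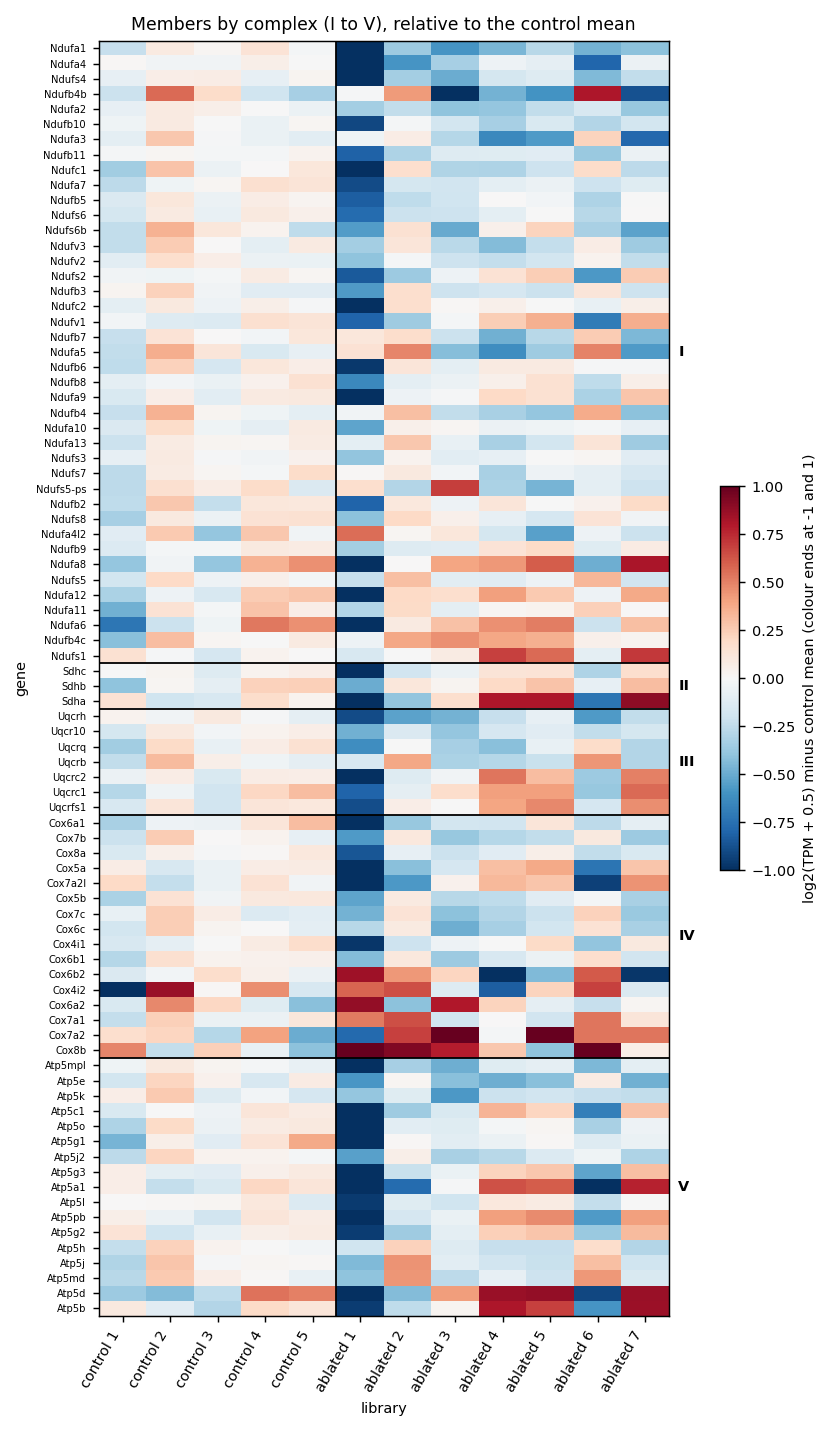
Log2(TPM + 0.5) of the 84 tested members (rows, ordered within complexes I to V by log2 fold change) in each of the 12 libraries (columns), minus the control mean; blue is lower and red higher, with colours ending at -1 and 1. The median member sat 0.63 below the control mean in ablated 1 and between 0.12 below and 0.01 above it in the other ablated libraries.

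Complex I, the entry point for NADH, is made of a catalytic core and many accessory subunits around it. Of its 41 tested members 36 had negative log2 fold changes, with a median of -0.12. The 7 core subunits, which carry the flavin, the iron-sulphur clusters and the quinone site, had a median of -0.09 with 6 negative. The 34 other tested members, counted as accessory by name, had one of -0.12 with 30 negative. These 34 include Ndufs5-ps and Ndufs6b, annotated as pseudogenes, and Ndufa4, later found bound to complex IV. In 6 members, of which 5 were counted in complex I by name, Ndufa4 among them, every ablated library was below every control library. Over all genes tested this held for 1.55%. No member had every ablated library above every control, against 1.33% of all genes. The 6 were Ndufa1, Ndufa2, Ndufa4, Ndufb11, Ndufs4 and Atp5mpl. Of these, Ndufb11 was singled out after its values were seen, and Ndufa4 was named by rule only through its isoform set.

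Ndufa2, an accessory subunit of the arm that oxidises NADH, had the smallest p of all members. Its levels were 364, 412, 403, 386 and 370.4 TPM in controls 1 to 5 and ran from 292 to 347 TPM (median 306) in the ablated libraries. The groups did not overlap, and both were narrow, with 387 ± 20.2 TPM in controls (SD, n = 5) and 313 ± 20.3 TPM in ablated libraries (SD, n = 7). This gave a log2 fold change of -0.31 (SE 0.08, limma adjusted p = 0.101), and the 95% interval of the log2 fold change was -0.49 to -0.13. Ndufa2 overlaps the gene Tmco6 in the annotation.

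Ndufa1, a small X-linked subunit of the membrane arm, stood at 446, 558, 530.5, 575 and 517 TPM in controls 1 to 5. It ran from 167 to 432 TPM (median 381) in the ablated libraries, where ablated 1 was far below the others and all 7 were below the lowest control. The comparison gave a log2 fold change of -0.60 (SE 0.20, limma adjusted p = 0.222). Without ablated 1 the log2 fold change was -0.43 and passed, with a limma adjusted p of 0.0276. It was then the single member called, 1.19% of those tested, where 2.03% of all genes were called, 1.25% as lower and 0.78% as higher.

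Ndufs4, an accessory subunit known for its mutation in Leigh syndrome, a neurological disease of infancy, was at 103, 114, 114, 103 and 111 TPM in controls 1 to 5 and from 52.6 to 99.5 TPM (median 85.9) in the ablated libraries. The groups were apart by a small margin, and the test gave a log2 fold change of -0.41 (SE 0.14, limma adjusted p = 0.226). Ndufb11, another X-linked subunit of the membrane arm, was at 328, 337, 328, 328 and 339.6 TPM in controls and from 189 to 319 TPM (median 304) in ablated libraries, with a log2 fold change of -0.27 (SE 0.13, limma adjusted p = 0.413). Its controls spanned very little, and ablated 1 and 6 were lowest.

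Ndufa4, first assigned to complex I and later found bound to complex IV, was at 480.1, 467, 467, 496 and 477 TPM in controls 1 to 5. Ablated libraries ran from 133 to 459.8 TPM (median 379.9), lowest in ablated 1, 6 and 2, while the other 4 came closer to the controls. The test gave a log2 fold change of -0.54 (SE 0.26, limma adjusted p = 0.461). Its relative Ndufa4l2, known as a target of hypoxia signalling, was low at 2.16 ± 0.49 and 2.1 ± 0.642 TPM.

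The most abundant complex I members were Ndufa3 and Ndufb9, both accessory subunits of the membrane arm. Ndufa3 was at 783 ± 90.4 TPM in controls and 657 ± 176 TPM in ablated libraries, with a log2 fold change of -0.29 (SE 0.18, limma adjusted p = 0.601). Its lowest ablated libraries were 7, 4 and 5, which are not those that were lowest for Ndufa4. Ndufb9 was at 619 ± 39.8 and 606 ± 77.5 TPM, a log2 fold change of -0.04, and its sign turned to 0.0094 without ablated 1.

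Complex II was the exception in sign, with 2 of 3 tested members positive and a median log2 fold change of 0.05. Sdha, the flavoprotein that oxidises succinate, was at 211, 166, 171, 216 and 195 TPM in controls 1 to 5 and from 89.8 to 356 TPM (median 214) in the ablated libraries. Ablated 4, 5 and 7 were above every control, ablated 1, 2 and 6 below every control, and ablated 3 within their range. The difference between group means was small beside this spread, with a log2 fold change of 0.07 (SE 0.33, limma adjusted p = 0.974). Its sign was negative in the voom fit, at -0.0081, and with the epithelium covariate, at -0.52.

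Sdhb, the iron-sulphur subunit, was at 359.7 ± 62.6 and 373 ± 65.6 TPM, and Sdhc, a membrane anchor, at 364 ± 18.4 and 335 ± 83.7 TPM. Neither differed beyond its spread, with limma adjusted p = 0.956 and 0.831. Sdhd, the other membrane anchor, was at 0.310 TPM in controls and 0.178 TPM in ablated libraries, resting on 44 reads over all 12 libraries. It did not reach the minimum and was not tested.

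Complex III had 5 negative and 2 positive log2 fold changes among 7 tested members, with a median of -0.06. Uqcrh, the small hinge protein that sits with cytochrome c1, was at 1267, 1204, 1324, 1222 and 1159.9 TPM in controls 1 to 5 and from 665 to 1164 TPM (median 887) in the ablated libraries. All but ablated 5 were below the lowest control, ablated 5 by a narrow margin being above it. The test gave a log2 fold change of -0.43 (SE 0.14, limma adjusted p = 0.18). A pseudogene, Gm12854, lies within the annotated bounds of Uqcrh, and how reads were shared there is not given in the sources used here.

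Uqcr10, another small subunit, was at 1086 ± 78.8 TPM in controls and 918 ± 84.6 TPM in ablated libraries, with a log2 fold change of -0.24 (SE 0.10, limma adjusted p = 0.353). Uqcrq, a small subunit near the ubiquinone site, was at 980.1 ± 141 and 845 ± 161 TPM, with a log2 fold change of -0.22 (SE 0.15, limma adjusted p = 0.643). Uqcrb, among the highest of the complex, was at 1269 ± 189 and 1234 ± 308 TPM, a log2 fold change of -0.06. Against these, the large core proteins Uqcrc1 and Uqcrc2 and the Rieske iron-sulphur protein Uqcrfs1, named after their values were seen, had log2 fold changes of 0.04, -0.03 and 0.05. Their spread was wider, with coefficients of variation of 28.8 to 33.8% in ablated libraries. Uqcr11 had 2 reads in all and was not tested.

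Complex V, the ATP synthase, had 15 negative and 2 positive log2 fold changes of 17, with a median of -0.19. Atp5b, the catalytic β subunit, was at 1170.2, 1010.2, 894, 1251 and 1187 TPM in controls 1 to 5 and from 565 to 1981 TPM (median 1118) in the ablated libraries. Atp5a1, the α subunit, named after its values were seen, was at 852, 691, 733, 943 and 884 TPM in controls and from 275 to 1387 TPM (median 808) in ablated libraries. For both, ablated 4, 5 and 7 were above every control and ablated 1 and 6 were below every control. Group means were 1103 ± 146 and 1283 ± 591 TPM for Atp5b, with a log2 fold change of 0.08 (SE 0.30, limma adjusted p = 0.962), and 820.4 ± 105 and 838 ± 462 TPM for Atp5a1, with a log2 fold change of -0.19 (SE 0.38, limma adjusted p = 0.93). For Atp5a1 the mean TPM was slightly higher in ablated libraries while the log2 fold change, which compares means of log2 values, was negative. The sign for Atp5b was negative with the epithelium covariate, at -0.45.

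The small synthase subunits Atp5mpl, Atp5k, Atp5e and Atp5j2, named by rule, had coefficients of variation of 10.0 to 25.8% among ablated libraries. Those of Atp5b and Atp5a1 were 46.1% and 55.1%. The small c subunit genes Atp5g1, Atp5g2 and Atp5g3, also named by rule, lay between, with coefficients of 24.4, 29.1 and 35.0%. Atp5d, the δ subunit, named after its values were seen, had a coefficient of 54.3%, and one of 34.4% in controls. Atp5mpl, a small membrane subunit, was at 820.5, 905, 859, 834 and 803 TPM in controls 1 to 5 and from 317 to 792 TPM (median 669) in the ablated libraries, with every ablated library below every control and ablated 1 far below the rest. The test gave a log2 fold change of -0.43 (SE 0.20, limma adjusted p = 0.43). Atp5k, which helps to hold synthase dimers together, was at 948 ± 117 and 779.8 ± 78.3 TPM, with a log2 fold change of -0.28 (SE 0.11, limma adjusted p = 0.325). Atp5e, the ε subunit of the central stalk, was at 1234 ± 144 and 992 ± 193 TPM, with a log2 fold change of -0.33 (SE 0.14, limma adjusted p = 0.376). Atp5j2, a small membrane subunit, was at 1348 ± 157 and 1157 ± 159.9 TPM and had a log2 fold change of -0.22.

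In the median, the longer members, which include some catalytic and core subunits, had wider relative spread among ablated libraries than the shorter ones. Among the 70 tested members over 100 TPM, 67 had a larger SD in the ablated than in the control group. The median coefficient of variation was 10.99% in controls and 21.4% in ablated libraries. For the 19 of these members longer than 1000 bases it was 9.73% and 28.8%, and for the 51 shorter ones 11.1% and 20.2%. Single values varied widely: in ablated libraries those 19 ran from 10.2% for Ndufv2 to 55.1% for Atp5a1. The 7 core subunits of complex I ran from 9.21% for Ndufs7 to 31.9% for Ndufv1. Ablated 1 was the lowest of all 12 libraries for 61 of 84 members, control 2 the highest for 26 and ablated 7 the highest for 14. Over the 22 tested members longer than 1000 bases, the median log2 distance from the control mean was -0.86 in ablated 1 and -0.34 in ablated 6. It was 0.22 in ablated 4, 0.26 in ablated 5 and 0.30 in ablated 7.

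The epithelium marker Cdh1, from a list of 10 and not named by rule, is set beside this spread with the mitochondrial DNA share. The part of either in the spread was not tested. Cdh1 was at 143, 64.2, 74.8, 151 and 124 TPM in controls 1 to 5. In ablated 1, 2 and 6 it was at 44.6, 51.0 and 38.0 TPM, in ablated 3 at 144 TPM, and in ablated 4, 5 and 7 at 279, 266 and 325 TPM. The summed level of all 10 epithelium markers was 13391 ± 1429 TPM in controls and 17279 ± 3018 TPM in ablated libraries. It was lowest in ablated 1 at 11617 TPM and highest in ablated 4 at 20370 TPM. In ablated 2 and 6, where Cdh1 was low, this total was 17920 and 15268 TPM, against 12175 to 15276 TPM in controls. None of the 10 passed the test. The mitochondrial DNA share was 25.6% in ablated 1 and 14.2% in ablated 6, and 6.07, 6.45 and 5.20% in ablated 4, 5 and 7. In ablated 2 and 3 it was 10.2 and 6.99%, where controls ran from 7.44 to 13.3%.

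**Figure D3:**
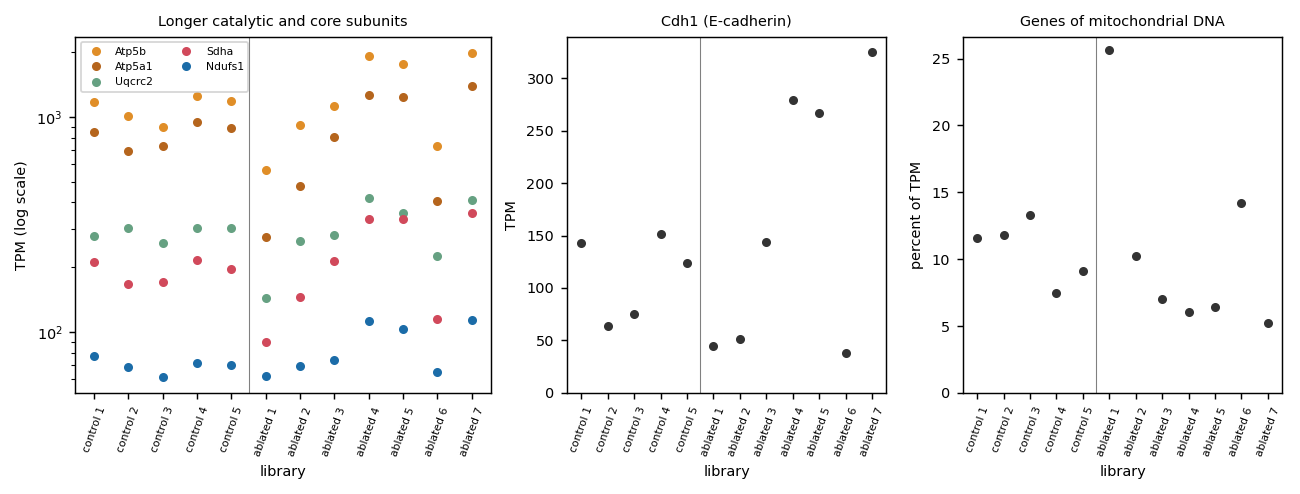
Left, TPM (log axis) of Atp5b, Atp5a1, Uqcrc2, Sdha and Ndufs1 in each library. Middle, TPM of Cdh1. Right, genes of mitochondrial DNA as percent of TPM. Of the single genes drawn, Atp5b and Sdha were named by rule and the others were not. Each point is a library, and the grey line separates the 5 controls from the 7 ablated libraries; Atp5b spans 565 to 1981 TPM and Cdh1 38.0 to 325 TPM among the latter.

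Complex IV had 11 negative and 5 positive log2 fold changes among 16 tested members, with a median of -0.19. Its most abundant member was Cox7c, a small structural subunit, at 2240.4, 2789, 2475, 2148 and 2184 TPM in controls 1 to 5 and from 1693 to 2757 TPM (median 1926) in the ablated libraries. The groups overlapped, with a log2 fold change of -0.20 (SE 0.15, limma adjusted p = 0.692). Cox4i1, the common isoform of the largest nuclear-encoded subunit, followed at 2185 ± 205 and 1963 ± 466 TPM, with a log2 fold change of -0.19 (SE 0.19, limma adjusted p = 0.788). In controls the levels of Cox7c, Cox4i1 and Cox6a1, the last at 2103 ± 344 TPM, were closer to each other than their SDs. Cox8a, at 1803 ± 116 and 1559 ± 274 TPM, and Cox7b, at 742 ± 89.4 and 636 ± 113 TPM, had log2 fold changes of -0.23 and -0.23.

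Several complex IV subunits have isoforms restricted to heart and skeletal muscle, testis or low oxygen. In the colon libraries the common isoform had the higher level in each set but Cox7a. There Cox7a1, known from muscle, held 99.9% in controls and 99.7% in ablated libraries. Whether these shares reflect the tissue or the counting of Cox7a2, on 78 reads in all, was not tested. Cox4i2, known from lung and low oxygen, held 0.108 ± 0.0654% of Cox4i1 and Cox4i2 together in controls and 0.146 ± 0.0931% in ablated libraries. The muscle isoform Cox6a2 held 0.0427 ± 0.0185% and 0.0704 ± 0.0581% of its pair with Cox6a1, on 92 reads in all. Cox6b2, known from testis, was at 15.2 ± 1.34 and 16.4 ± 8.02 TPM, 1.08 ± 0.11% and 1.298 ± 0.717% of its pair with Cox6b1. The testis isoforms Cox7b2, with 5 reads in all, and Cox8c, at 0 in all libraries, were not tested.

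Cox8b, a muscle isoform, had the smallest p of complex IV and the only log2 fold change above 0.6 among the members. It was at 5.11, 2.88, 4.2, 3.29 and 2.5 TPM in controls 1 to 5 and from 2.52 to 13.9 TPM (median 6.38) in the ablated libraries. Ablated 1, 6, 2 and 3 were above every control and the other 3 were within the controls' range, which gave a log2 fold change of 0.67 (SE 0.33, limma adjusted p = 0.466). Skeletal muscle markers summed to 39.3 ± 12.2 TPM in controls and 85.7 ± 44.3 TPM in ablated libraries, with 147 TPM in ablated 1 and 151 TPM in ablated 6. All 9 tested skeletal muscle markers had positive log2 fold changes and none passed; their part in the Cox8b values was not tested.

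Cox7a1, known as the muscle isoform, was the exception to low levels, at 239, 334, 271, 271 and 306 TPM in controls 1 to 5 and from 247 to 443 TPM (median 308) in the ablated libraries. The groups overlapped, with a log2 fold change of 0.21 (SE 0.17, limma adjusted p = 0.722). Its pair Cox7a2, known as the common isoform of most tissues, was at 0.38 ± 0.217 and 0.914 ± 0.715 TPM, on 78 reads in all. Cox7a2 passed the minimum only through ablated libraries, and its log2 fold change of 0.55 had limma adjusted p = 0.624. Its annotated bounds overlap those of a pseudogene, Gm51685, and of Tmem30a. The c subunit of the synthase, whose 3 genes encode the same mature protein, was read mostly from Atp5g3, with 60.6 ± 1.997% in controls and 59.9 ± 3.69% in ablated libraries. Atp5g2 held 20.2 ± 1.39% and 21.3 ± 2.66%, and Atp5g1 19.2 ± 3.26% and 18.8 ± 3.01%.

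**Figure D4:**
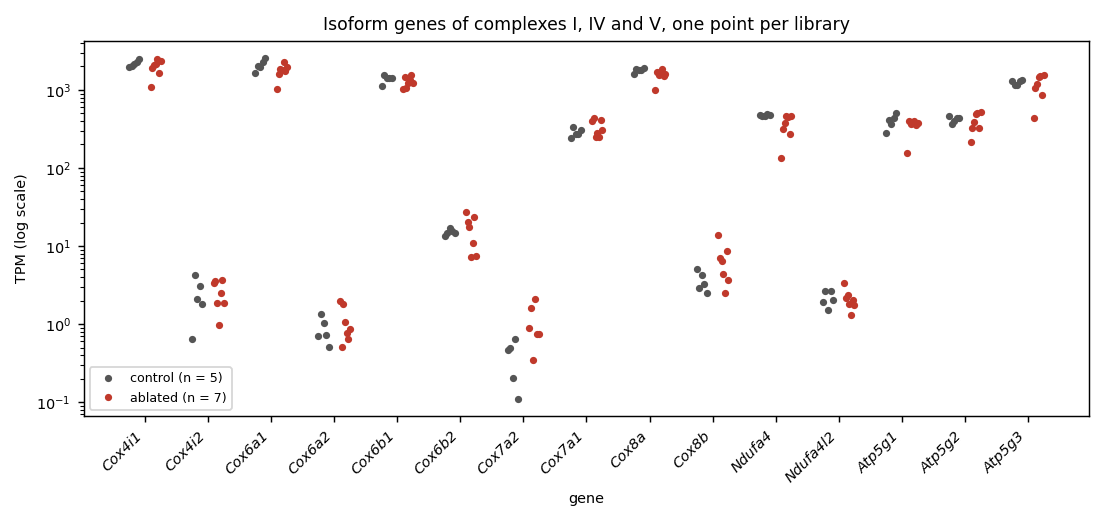
TPM (log axis) of isoform genes of complexes I, IV and V, 1 point for each control (grey, n = 5) and ablated (red, n = 7) library; a library at 0 is not drawn, which leaves out ablated 1 for Cox7a2. The common isoform is 10-fold or more above the restricted ones in each set except the Atp5g genes, which are all common, and Cox7a. In Cox7a the muscle isoform Cox7a1 is the higher, beside 78 reads of Cox7a2 in all. Cox8b spans 2.52 to 13.9 TPM among ablated libraries.

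Most members are short transcripts, and short transcripts as a class had negative median log2 fold changes. Gene length as recovered from TPM had a median of 644 bases over the 84 tested members and 2572 bases over the other genes. Up to 600 bases, the median log2 fold change was -0.20 for 39 members, 34 of them negative, and -0.14 for 973 other genes, 65.98% of them negative. From 600 to 1000 bases it was -0.09 for 23 members and -0.07 for 1196 other genes. From 1000 to 2000 bases it was -0.14 for 18 members and -0.01 for 3796 others, and from 2000 to 4000 bases 0.04 for 4 members and 0.05 for 6042 others. Among other genes of up to 600 bases and over 100 TPM, 125 in number, the median was -0.17 and 84% had negative values. The 39 members of up to 600 bases, 34 of them negative, were not limited to those over 100 TPM. As a description across genes, which are not independent replicates, Spearman's rho of length and log2 fold change was 0.28 over members and 0.22 over other genes. The part of transcript length in the members' values was not tested.

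**Figure D5:**
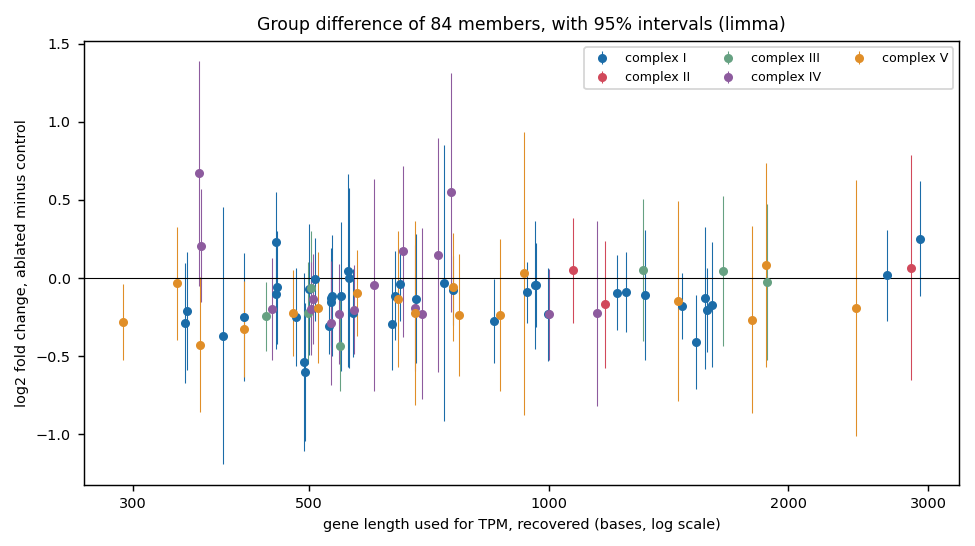
Log2 fold change (ablated minus control) with its 95% interval from limma for each of the 84 tested members, by complex, against the gene length recovered from TPM on a log axis. Most points lie below 0, more so among short members (34 of 39 up to 600 bases), and most intervals cross 0.

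Genes that work with the members were described from 6 lists, none of which held a called gene. The 13 subunits encoded in mitochondrial DNA summed to 98246 ± 21451 TPM in controls and 98966 ± 65056 TPM in ablated libraries, with 12 negative log2 fold changes and a median of -0.18, so that the summed level and the median differ in sign. Of these ND3, a membrane subunit of complex I, had the smallest p, at 294, 309, 315, 166 and 186 TPM in controls 1 to 5 and from 11.7 to 214 TPM (median 93.7) in the ablated libraries. The groups overlapped, with a log2 fold change of -1.74 (SE 0.55, limma adjusted p = 0.181).

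Assembly factors, which build the complexes and are not part of them, had 28 negative and 21 positive log2 fold changes among 49 tested and a median of -0.06. Coa4, an assembly factor of complex IV, had the smallest p, at 58.9 ± 6.58 and 42.9 ± 8.3 TPM, with a log2 fold change of -0.47 (SE 0.14, limma adjusted p = 0.141). The 18 genes of the tricarboxylic acid cycle and pyruvate dehydrogenase had 10 negative and 8 positive values and a median of -0.01. Dlst, a subunit of the oxoglutarate dehydrogenase complex, was at 122 ± 7.65 and 137 ± 8 TPM, with a log2 fold change of 0.17 (SE 0.08, limma adjusted p = 0.419). Their summed level was 1640 TPM in ablated 1 and 3829 TPM in ablated 7, against 2561 to 3135 TPM in controls.

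Electron carriers and partner proteins had 5 negative and 8 positive values of 13 and a median of 0.05. Etfa, which passes electrons from fatty acid oxidation, was at 154 ± 16.9 and 188 ± 43.7 TPM, with a log2 fold change of 0.25 (SE 0.17, limma adjusted p = 0.647). Regulators of mitochondrial biogenesis had 6 negative and 8 positive values of 14 and a median of 0.03. Twnk, the helicase of mitochondrial DNA, was at 15.7 ± 1.26 and 12.9 ± 1.81 TPM, with a log2 fold change of -0.29 (SE 0.11, limma adjusted p = 0.318). Among genes of the outer membrane and protein import 8 of 10 were negative, with a median of -0.08. Tomm22, an import receptor, was at 223 ± 7.16 and 197 ± 9.59 TPM with no overlap between groups and a log2 fold change of -0.18 (SE 0.07, limma adjusted p = 0.337).

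Near-identical copies limit some members. Of 88 members with an annotated transcript, 12 shared more than 20% of their 50-base words with transcripts of other genes and 46 shared none. Each share is of a single long transcript, which can exceed the gene length recovered from TPM. For Atp5l these were 6310 and 513 bases, so a share need not hold for the part counted. For Atp5o the entry sharing most, 24.6%, carries the same symbol. Ndufb4c shared all of them with Ndufb4, so its values cannot be told apart from reads of Ndufb4. Ndufb4 itself shared 37.0%. Sdhd and Cox7a2 shared none, and Uqcr11 shared 1.7%. Why these members had so few reads was not tested. The annotated bounds of 31 of the 90 members overlap those of another gene, and the use of strand in counting is not given in the sources used here.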

How the data were processed

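Bulk RNA was profiled in 12 mouse colon libraries, 5 control and 7 ablated, grouped by the genotype in the labels. Per the labels, RNA was extracted with Trizol, selected for poly(A) tails and prepared with a stranded kit. The submitters' processing notes name bcl2fastq 2.17, HISAT, featureCounts and mm10, and further versions are not given in the sources used here. The authors deposited TPM per gene, both per sample and in a series table, and the 2 agree in every value. The authors' deposited comparison, made with edgeR, holds for each gene a log2 fold change, log2 CPM averaged over libraries, an F statistic (a score), a p-value and a false discovery rate, and is quoted only where named.

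The 16164 genes that reached 0.5 TPM in 5 or more libraries were fitted on log2(TPM + 0.5) by limma (version 3.58.1, trend, both directions; R version 4.3.3). Adjustment was by the Benjamini-Hochberg method across those genes, with a threshold of 0.05. The fit was checked on simulated reads with the same dispersion for all genes and changes larger than those of any tested member. That check does not cover small changes or a library as far apart as ablated 1. A fold change on this scale understates the change of low genes. Whole reads could be recovered from TPM for 22840 of 22842 genes above 0, with 100% of values within 0.05 read of a whole number; they gave depth, gene length and a voom fit. Near-identical copies were counted as shared 50-base words of GENCODE transcripts. Figures were drawn with matplotlib 3.10.9 under Python 3.11.15.

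The members and 16 lists of 203 genes, 200 of them in the table, were chosen with earlier results of these data known, so no list gets a test. Named by rule were, in each complex, the 3 tested members with the smallest p and the 2 with the highest mean TPM, isoform sets, and the gene with the smallest p of each list (3 where genes were called). Alternatives changed the added constant, the minimum level, the scaling, the variance model, covariates, a block by library number and the libraries left out. A covariate score is built from the log2 values of a marker list.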

Additional observations from a re-analysis of the deposited data

Results flagged for a closer look

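Single genes and totals, 43 in number, were each looked at in both groups (86 groups). In 9 of these a library was farther from the others than the Dixon limit allows. For independent groups chance gives about 1 in 20. These groups are not independent, since totals contain some of the genes and all share the same libraries. The count therefore cannot be measured against that rate. In 8 of the 9 the library was ablated 1, as the lowest of its group. It stood at 167.1 TPM for Ndufa1, 996.3 TPM for Cox8a, 317.3 TPM for Atp5mpl and 157.5 TPM for Atp5g1. For Ndufb10, which was singled out after its values were seen, ablated 1 stood at 270.3 TPM. The totals of ablated 1 were 7630 TPM for complex I, 7820 TPM for complex V and 29330 TPM for all members. Ablated 1 also had the lowest depth, at 13365740 reads, and the highest share of TPM in genes of mitochondrial DNA, at 25.6%. The members held 2.93% of all TPM in ablated 1 and 4.65 ± 0.304% in controls (SD, n = 5). Of TPM outside mitochondrial DNA they held 3.94% and 5.20 ± 0.328%, with ablated 1 still the lowest library. With genes of mitochondrial DNA left out of the scaling, 0 members passed and their median log2 fold change was -0.13. The part of depth or of this share in the low values of ablated 1 was not tested. In the remaining case control 2 was the highest control for Ndufa3, at 941.3 TPM.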

How the results depend on the processing

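Of 935 log2 fold changes recomputed for 36 members under 26 alternatives, 874 kept both direction and side of the threshold, 28 kept direction and passed it, and 33 turned sign. With the epithelium covariate 36 members were called lower and 1 higher, and 2614 genes in all; log2 fold changes turned sign for Sdhb (-0.19), Sdha (-0.52), Atp5b (-0.45), Uqcrb (0.061), Cox6b2 (0.44) and Ndufa4l2 (0.12). With the mitochondrial share as covariate 7 members were called lower, and 693 genes. With a weight per library 3 members were called lower and 1 higher, and 1092 genes, and Ndufb9 (0.042), Sdhc (0.037), Cox4i2 (-0.12), Atp5g3 (0.086) and Atp5g2 (0.10) turned sign. With no minimum level 349 genes were called, and 0 members. Quantile scaling turned Uqcrb (0.024) and Ndufa4l2 (0.0067), and voom turned Sdhb (-0.013) and Sdha (-0.0081). The cause of these turns was not tested, and none of these genes passed without a covariate or weights.

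Leaving out each library in turn, 0 to 1 members were called lower (Ndufa1, without ablated 1) and 128 genes (without control 2) to 328 (without ablated 1), with 137 without control 3. The median over members ran from -0.17 to -0.06, the latter without ablated 1. Signs turned within the ranges of Ndufb9 (-0.080 to 0.0094), Sdhb (-0.050 to 0.14), Sdha (-0.072 to 0.26), Uqcrb (-0.15 to 0.017), Atp5b (-0.046 to 0.26), Cox4i2 (-0.15 to 0.37), Cox6b2 (-0.19 to 0.12), Ndufa4l2 (-0.14 to 0.040) and Atp5g2 (-0.21 to 0.0022). The ratio of complex II totals was -0.04 (log2) without ablated 7.

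Deviations of control and ablated libraries with equal numbers had correlations of 0.009, 0.359, -0.269, 0.203 and 0.162. Unequal numbers were not compared, so these values cannot decide whether equal numbers were paired. With the library number as a block 84 genes were called and 0 members, and Cox6b2 was at 0.0072.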

Other observations

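Marker lists of cell types not described above held no called gene. All 6 enteric glia markers had negative log2 fold changes, with a median of -0.52, and 7 of 8 immune cell markers did, with a median of -0.27. All 8 pericyte and endothelium markers were positive, with a median of 0.34, and their summed level was 46.4 ± 2.07 TPM in controls (SD, n = 5) and 61.6 ± 5.80 TPM in ablated libraries (SD, n = 7), without overlap. Fibroblast markers had a median of 0.25 over 6 genes, smooth muscle markers one of -0.0040 over 10, adipocyte markers one of -0.09 over 5 tested, and cardiac and slow muscle markers one of -0.30 over 5 tested.

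The gene with the smallest p in each of these lists, and in the lists of epithelium and skeletal muscle, did not pass either. Fabp7, a lipid-binding protein of glia, came closest, at 1.17 ± 0.413 TPM in controls and 0.34 ± 0.302 TPM in ablated libraries, a log2 fold change of -1.02 with limma adjusted p = 0.0536. Car1, a carbonic anhydrase of colonocytes, was at 1222 ± 436 and 2913 ± 978 TPM (1.27 on the log2 scale, limma adjusted p = 0.123). Jchain, the joining chain of secreted antibodies, was at 555 ± 113 and 219.6 ± 159 TPM, a log2 fold change of -1.69. Tnnt3, a fast skeletal muscle troponin, was at 6.42 ± 3.43 and 27.6 ± 27.1 TPM, a log2 fold change of 1.75. Those of Rgs5, Actg2, Pdgfra, Tnnt1 and Cfd were 0.54, 0.65, 0.20, -0.30 and -0.87, with limma adjusted p from 0.376 to 0.757.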
